A study of Mus musculus with 10 samples.

Results

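Messenger RNA of 7 genes that set the supply of deoxyribonucleoside triphosphates (dNTPs), the building blocks of DNA, was compared between mouse bladder tumours with and without ATM. The genes were Rrm1, Rrm2, Rrm2b, Samhd1, Tk1, Tyms and Dck, chosen by symbol, and all 7 were found among the 23086 genes of the deposited table. They lie apart in the mouse genome (GENCODE M21), Rrm1 on chromosome 7, Rrm2 on 12, Rrm2b on 15, Samhd1 on 2, Tk1 on 11, and Tyms and Dck on 5. The series holds 10 urothelial tumours, 5 labelled ATM-WT and 5 labelled ATM-KO, all of the line BBN963 and all taken from mice once they measured 500 mm3. BBN963 is a mouse urothelial carcinoma line named for the carcinogen BBN. ATM, the product of the gene mutated in ataxia telangiectasia, is a kinase activated by broken DNA, and the ATM-KO tumours are labelled as lacking it. The labels give no other treatment, no strain, sex or age, no number of knockout clones and no statement that each tumour came from its own mouse, so the p-values below measure the spread between these samples, which may be partly technical.

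Ribonucleotide reductase converts ribonucleotides to their deoxy forms and is the rate-limiting step of dNTP synthesis. It pairs the large subunit RRM1 with a small subunit, either RRM2, which accumulates in S phase, or RRM2B (p53R2), a p53-inducible form that serves DNA repair and mitochondrial DNA outside S phase. Thymidylate synthase (TYMS) makes dTMP, the kinases TK1 and DCK recover thymidine and deoxycytidine from outside the cell, and SAMHD1 hydrolyses dNTPs. DCK is also the kinase that activates gemcitabine, a drug given in bladder cancer. RRM2B is known to respond to ATM and p53, and Rrm2 is therefore set against Rrm2b and Samhd1 below.

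Normalized counts summed to 20.2 to 22.3 M (M for mega) per library. The spacing of low values gave a rough estimate of 20.6 to 28.3 M reads per library, except 8.83 M in ATM-WT library A2. Libraries A2 and A4 of the ATM-WT group stood apart by their genes listed at 0, 4824 and 4266, where the other libraries had 2225 to 3602. The fewest estimated reads behind any value of the 7 genes were 178, for Rrm2b in A2. Urothelial and epithelial markers were far lower in the ATM-KO tumours: of 17 tested, 16 fell and 0 rose, and their summed level was 91474 to 248826 normalized counts in ATM-WT and 2989.9 to 4929 in ATM-KO, with Upk3a at 0 in all 5 ATM-KO libraries. Krt8 fell from 10857 ± 4561 to 15.2 ± 10.8 and Krt19 from 10238 ± 4181 to 10.2 ± 3.17. Fibroblast markers fell in 10 of 12 tested, 0 rose, and their summed level was 189886 to 649249 in ATM-WT and 47738 to 131487 in ATM-KO, with Dpt at 4549.6 ± 3702 and 113 ± 44.7 and Cxcl12 at 3964 ± 2047 and 687 ± 240.0. Of 8 endothelial markers 0 rose and 1 fell, Kdr (from 819 ± 460.0 to 345 ± 69.5), a call lost without A3, A11 or A12, while Egfl7 gave 598 ± 192 and 708 ± 141. The part of these marker differences in the results below was not tested, and in whole tumours fewer cells of a type and less RNA per cell cannot be told apart.

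Of the 7 genes, 6 were higher in ATM-KO and 0 were lower, at adjusted p below 0.05 in limma's moderated test over all 16517 genes with a mean of at least 10. Across all genes tested, 22.1% were called higher (3649) and 24.3% lower (4017), shares to be set beside every list count. Quantile normalization turned that split to 4514 higher and 3319 lower, with a median log2 fold change of all genes of 0.15, and kept the same 6 calls. The 7 genes had a median log2 fold change (ATM-KO minus ATM-WT, on log2 of the normalized count plus 1) of 0.61, against 0.0047 for all genes tested. For 5 of the 7, every ATM-KO library lay above every ATM-WT library, as it did for 17% of all genes tested. The exception to the calls was Samhd1.

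The large reductase subunit gene Rrm1 rose. In ATM-WT its normalized counts were 1565, 2571, 1867, 2268 and 2287, in the order A1 to A5. In ATM-KO they were 3029, 3393, 3165, 2847 and 3000.1, in the order A11 to A15. Every ATM-KO library was above every ATM-WT library, and A1 and A3 were the lowest of all. In A1 and A3 the summed fibroblast markers stood at 620923 and 649249, against 189886 to 292786 in the other ATM-WT libraries. The part of that difference in the Rrm1 values was not tested. Means were 2112 ± 395 and 3087 ± 205 (SD, n = 5 each), and the log2 fold change was 0.57 ± 0.13 (SE) with a 95% interval from 0.29 to 0.84 (limma adjusted p = 0.0028). Its exact permutation p, two-sided as all below, was 0.0079, the smallest that the 252 splits of 5 against 5 can give.

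Rrm2, the small subunit of S phase, rose too, with less spread among the ATM-WT tumours. ATM-WT libraries held 1569.9, 1369, 1518, 1269 and 1612 normalized counts in the order A1 to A5, and ATM-KO libraries 2418, 2386, 1953, 2424 and 2146 in the order A11 to A15. The groups did not overlap, with A5 the highest ATM-WT library and A13 the lowest ATM-KO library. Means were 1468 ± 144 and 2265 ± 209, and the log2 fold change was 0.63 ± 0.10 with an interval from 0.41 to 0.84 (limma adjusted p = 2.61e-04, exact permutation p = 0.0079).

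The promoters of the reductase subunit genes Rrm1 and Rrm2, which both rose, are shown with that of Samhd1, the gene not called, for comparison. RefSeq (GRCm38.p6) gave a promoter of 300 bases, from 250 before to 50 after the start, for 6 of the 7 genes. The gene without one was Rrm2b, a reductase subunit gene that also rose. Capitals mark 2 kinds of letters searched on both strands: the E2F core (written TTCCCGC in its first form, TTGGCGC in a further form, TTCGCGC in another form and TTGCCGC in its last form), found in 9.64% of 32544 promoters of the same length, and the CCAAT box (CCAAT), found in 37.4%. The longer E2F letters with a further T in front (such as TTTCCCGC) occur in 2.28% of promoters and in none of these 6. Rrm1 lies at chr7:102441445-102441744 on the plus strand, Rrm2 at chr12:24708004-24708303 on the plus strand and Samhd1 at chr2:157135047-157135346 on the minus strand.
Rrm1: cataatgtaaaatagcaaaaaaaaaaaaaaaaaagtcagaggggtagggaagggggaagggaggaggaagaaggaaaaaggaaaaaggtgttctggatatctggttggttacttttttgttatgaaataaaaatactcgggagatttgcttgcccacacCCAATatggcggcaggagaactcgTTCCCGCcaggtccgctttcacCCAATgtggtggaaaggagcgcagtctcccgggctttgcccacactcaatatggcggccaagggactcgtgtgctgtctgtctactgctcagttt
Rrm2: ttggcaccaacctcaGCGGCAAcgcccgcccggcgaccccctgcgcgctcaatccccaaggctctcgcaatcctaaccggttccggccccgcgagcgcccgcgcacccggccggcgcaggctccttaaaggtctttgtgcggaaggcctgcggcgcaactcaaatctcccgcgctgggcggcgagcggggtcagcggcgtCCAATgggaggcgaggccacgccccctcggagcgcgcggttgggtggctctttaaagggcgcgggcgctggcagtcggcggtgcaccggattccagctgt
Samhd1: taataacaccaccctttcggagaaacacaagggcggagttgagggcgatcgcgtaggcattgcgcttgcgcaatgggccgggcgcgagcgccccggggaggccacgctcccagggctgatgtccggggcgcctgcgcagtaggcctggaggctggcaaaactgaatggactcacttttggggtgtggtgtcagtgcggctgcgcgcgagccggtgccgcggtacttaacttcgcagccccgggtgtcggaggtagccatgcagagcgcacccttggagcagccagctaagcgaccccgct

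The Rrm1 promoter held 1 E2F core on the plus strand at position -67 from the start, between CCAAT boxes at -91 and -45. The Rrm2 promoter held 1 E2F core on the minus strand at -235 and 1 CCAAT box at -50. Neither letter string occurred in the Samhd1, Tk1, Tyms or Dck window, although Tk1, Tyms and Dck rose as well. The GC box GGGCGG, found in 35.9% of promoters, occurred 6 times in the Dck window and 2 times in that of Rrm2, and 1 time each in those of Samhd1, Tk1 and Tyms. The TATA box (TATAAA, 13.6%) was found in none of the 6, and the cell cycle homology region (TTTGAA, 17.8%) occurred 1 time, in that of Dck. These matches describe the letters and were not tested as binding sites.

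**Figure D1:**
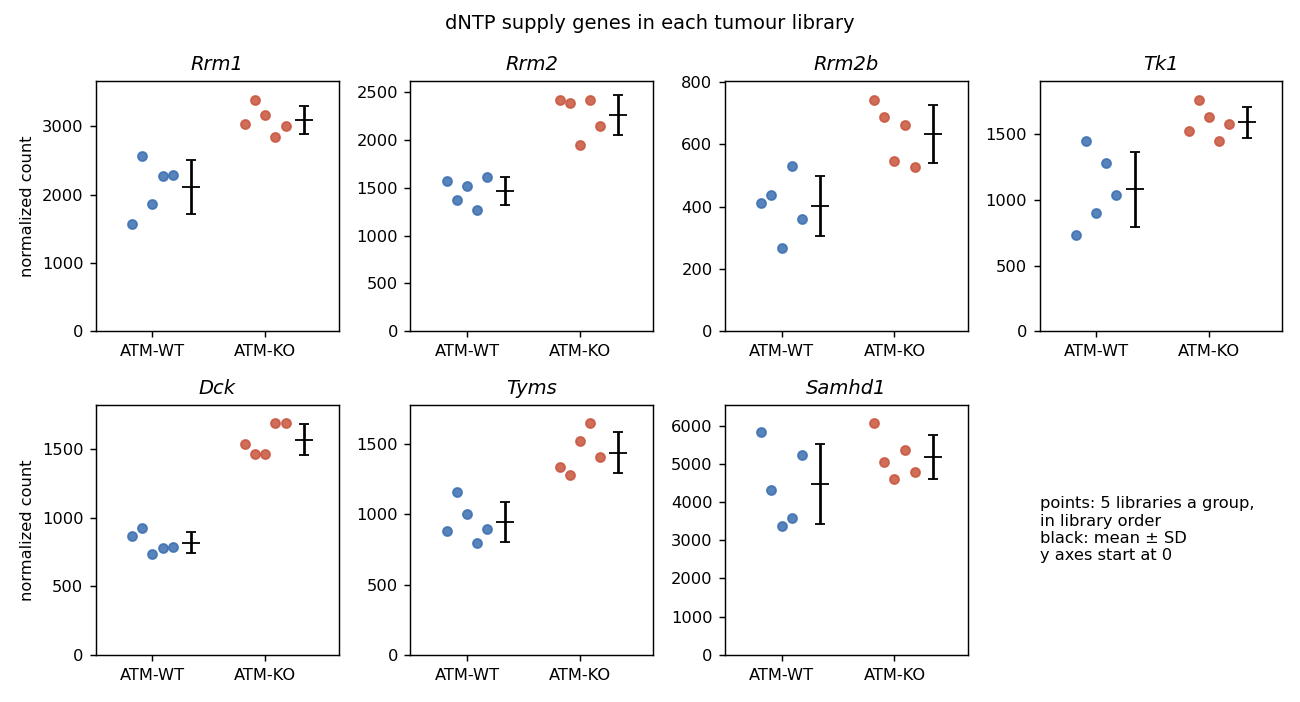
Normalized counts of the 7 genes in each library, with 5 ATM-WT tumours (blue) and 5 ATM-KO tumours (red) a panel, in library order, and the mean ± SD in black. The groups are apart for Rrm1, Rrm2, Tk1, Dck and Tyms, overlap by 1 library of each group for Rrm2b and overlap widely for Samhd1.

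Rrm2b, the small subunit inducible by p53, also rose. ATM-WT libraries held 410.4, 437, 267, 529.8 and 361 normalized counts, and ATM-KO libraries 744, 686, 546, 663 and 526. Of the ATM-KO libraries, 4 were above every ATM-WT library, while A15 was just below A4, the highest ATM-WT library. Means were 401 ± 97.0 and 633 ± 93.5, and the log2 fold change was 0.68 ± 0.18 with an interval from 0.29 to 1.07 (limma adjusted p = 0.0080, exact permutation p = 0.016). The principal Rrm2b transcript overlaps a gene on the other strand (Gm49085) over 260 bases, and the sources used here do not say whether reads were assigned by strand.

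The list of other p53 target genes, which holds Trp53 itself besides targets, went both ways. Of 26 tested, 7 rose and 9 fell, with a median log2 fold change of -0.06. Among all genes tested, 22.1% rose and 24.3% fell. The calls of Ddb2 (lower) and Gdf15 (higher), picked out after their values were seen, were lost in 11 and 7 of 19 alternatives. Trp53inp1, a p53-induced nuclear protein gene, fell from 1141 ± 325 to 476 ± 31.05 (-1.22 ± 0.17). Phlda3, an AKT inhibitor gene, fell from 3020.0 ± 483 to 1606 ± 229 and the antiproliferative gene Btg2 from 859 ± 194 to 417 ± 29.0. Perp, also a desmosome gene, fell from 11550.5 ± 8683 to 932 ± 254. Cdkn1a, which encodes the cell cycle inhibitor p21, was picked out after its values were seen and fell from 1696 ± 610.1 to 874 ± 71.9 (limma adjusted p = 0.012, but 0.068 without A2 and A4). Ccng1 (cyclin G1), picked out likewise, rose from 1524 ± 156 to 2299.5 ± 145 (0.60 ± 0.10). Without ATM-KO library A12 the count that rose was 4.

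The salvage kinase genes Tk1 and Dck rose. Tk1, the thymidine kinase of S phase, held 735, 1449, 901, 1281 and 1037 normalized counts in ATM-WT and 1526, 1765, 1635, 1449.9 and 1581 in ATM-KO. The groups did not overlap, but by less than 1 normalized count, between A2 and A14. Means were 1081 ± 287 and 1591 ± 119, and the log2 fold change was 0.60 ± 0.16 with an interval from 0.24 to 0.95 (limma adjusted p = 0.0094, exact permutation p = 0.0079). The principal Tk1 transcript shares 83 bases with Afmid, a gene on the other strand, and whether reads were assigned by strand is not known here either.

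Dck, deoxycytidine kinase, had the highest fold change of the 7 genes. ATM-WT libraries held 864, 924, 737, 777 and 786 normalized counts and ATM-KO libraries 1538, 1466, 1463, 1687 and 1689. All ATM-KO libraries lay far above the highest ATM-WT library, and both groups were tight. Means were 817 ± 75.2 and 1568 ± 113, and the log2 fold change was 0.94 ± 0.10 with an interval from 0.73 to 1.15 (limma adjusted p = 8.57e-06, exact permutation p = 0.0079), and 11.2% of all genes tested had a higher one. DCK is known to be abundant in lymphocytes. Of 17 T and NK cell markers tested, 2 rose and 0 fell (Gzmb from 100.3 ± 75.4 to 311 ± 159.5, and Cd4 from 102 ± 43.6 to 171 ± 37.8, the latter call lost in 11 of 19 alternatives), and the summed level of the list was 562 to 2155 in ATM-WT and 1413 to 3901 in ATM-KO. Of 10 B and plasma cell markers, 6 passed the filter, 2 rose and 1 fell, where 22.1% of all genes tested rose and 24.3% fell. The B cell kinase gene Blk rose from 13.3 ± 5.91 to 238 ± 72.7, and Cd79a, part of the B cell receptor and picked out after its values were seen, rose from 20.8 ± 17.4 to 234 ± 22.98, both with no overlap between the groups. Xbp1, a transcription factor gene of plasma and other secretory cells, fell from 3755 ± 403 to 2655 ± 167 and made up most of the summed level of the list, which was 3493 to 4349 in ATM-WT and 3128 to 3933 in ATM-KO. The count of T and NK markers that rose was 9 under quantile normalization and 1 without A2, A4, A11, A12 or A15, and 2 B and plasma cell markers fell without A2. None of either list was at 0 in all libraries of a group, and their part in the Dck result was not tested.

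Mitochondria have their own deoxynucleoside kinases, and these did not rise. Dguok, deoxyguanosine kinase, fell from 528 ± 37.1 to 293 ± 52.0 normalized counts (-0.87 ± 0.15, limma adjusted p = 4.12e-04), and its groups did not overlap. Tk2, the mitochondrial thymidine kinase, picked out after its values were seen, fell from 697 ± 95.8 to 539.9 ± 58.4 (-0.36 ± 0.13, limma adjusted p = 0.033). The Tk2 call was lost in 8 of 19 alternatives, among them leaving out A2, A3, A5, A11, A13 or A14 (highest adjusted p = 0.090). In the list of nucleoside and nucleotide kinases, 7 of 17 tested rose and 3 fell, Dguok among them, with a median of 0.24. The shares among all genes tested were 22.1% and 24.3%. The count that fell was 5 without A2 and A4 together, and the count that rose was 5 to 7 over 19 alternatives. The calls of Ak4 (higher) and Ak1 (lower), picked out after their values were seen, were lost in 9 and 8 of 19. The nucleoside diphosphate kinase relatives went opposite ways, Nme6 from 225 ± 43.9 to 488 ± 24.1 and Nme3 from 289 ± 15.7 to 104 ± 18.3. Ak6, an adenylate kinase relative, rose from 1674 ± 300.2 to 2628 ± 165.

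Nucleoside transporters carry the substrates of the nucleoside kinases, such as TK1 and DCK. Of 5 tested, 2 rose and 1 fell, with a median of 0.50, where 22.1% of all genes tested rose and 24.3% fell. Slc29a2, an equilibrative transporter, rose from 255 ± 79.6 to 736 ± 67.1 (1.57 ± 0.19, limma adjusted p = 3.46e-05). Its relative Slc29a1 rose from 1771 ± 525 to 2429 ± 165 (limma adjusted p = 0.031), a call lost in 10 of 19 alternatives, among them leaving out A2, A4, A5, A11, A12, A13 or A15 (highest adjusted p = 0.15). Slc29a3 gave 676 ± 213 and 915 ± 193 and was not called. The concentrative transporter gene Slc28a3 was at 0 in all 5 ATM-KO libraries and at 0.580, 92.5, 0, 52.2 and 45.8 in the ATM-WT libraries, a call (limma adjusted p = 0.028) also lost in 10 of 18 alternatives, among them leaving out A2, A4, A5 or any ATM-KO library. Cytidine deaminase (Cda), which inactivates deoxycytidine analogues and was picked out after its values were seen, rose from 241 ± 63.5 to 439.9 ± 36.3 (0.90 ± 0.18, limma adjusted p = 0.0013).

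Tyms, which makes dTMP from dUMP, rose. ATM-WT libraries held 878, 1160.0, 1002, 795 and 892 normalized counts and ATM-KO libraries 1333, 1279.9, 1519, 1646 and 1408. The groups did not overlap, with A2 the highest ATM-WT library and A12 the lowest ATM-KO library. Means were 945 ± 141 and 1437 ± 147, and the log2 fold change was 0.61 ± 0.12 with an interval from 0.35 to 0.87 (limma adjusted p = 0.0011, exact permutation p = 0.0079). In GENCODE M21, 21.55% of the words of 31 bases in its principal transcript also occur in transcripts of other genes, the pseudogene Tyms-ps first among them, so its level is uncertain where reads were shared. The same share was 16.5% for Rrm2, 14.99% for Rrm2b and 12.1% for Tk1, and at most 0.952% for Rrm1, Dck and Samhd1.

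Among 15 further genes of thymidylate synthesis and the folate cycle, 7 rose and 2 fell, with a median of 0.43. The shares among all genes tested were 22.1% and 24.3%. The mitochondrial folate enzyme genes Mthfd2 (from 956 ± 115 to 1771 ± 116) and Mthfd1l (from 778 ± 73.6 to 1511 ± 151) rose, as did Ggh (from 642 ± 135 to 1339 ± 145), a folate polyglutamate hydrolase. Dut, which removes dUTP and supplies dUMP, was picked out after its values were seen and rose from 2481 ± 263 to 4076 ± 382. Tk2, described above, was among those that fell, and without it 1 gene of the list fell.

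Samhd1, the dNTP hydrolase, did not pass the test. ATM-WT libraries held 5834, 4309, 3378, 3589 and 5223 normalized counts and ATM-KO libraries 6062, 5058, 4611, 5370.5 and 4781. The groups overlapped, with A1 above 4 of the 5 ATM-KO libraries, although A2, A3 and A4 were below all of them. Means were 4466 ± 1052 and 5176 ± 573, and the log2 fold change was 0.24 ± 0.15 with an interval from -0.09 to 0.56 (limma adjusted p = 0.22, exact permutation p = 0.20), so a rise of up to 1.48-fold or a fall to 0.941 of the ATM-WT level lies within the interval. Its adjusted p was 0.054 to 0.58 over 19 alternatives.

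Samhd1 is known as an interferon-induced gene and is abundant in myeloid cells. Of 28 type I interferon response genes tested, 13 rose and 1 fell, with a median of 0.53, where 22.1% of all genes tested rose and 24.3% fell. Among them Bst2 (tetherin) rose from 2863 ± 1234 to 9284 ± 1282, Ifih1 (the sensor MDA5) from 510.5 ± 105 to 1253 ± 283, Ddx58 (RIG-I) from 1252 ± 217 to 2166 ± 248, and Ifi35 from 912 ± 152 to 1530.4 ± 87.6. Without ATM-WT library A5 the count that rose was 20, and the count that fell was 2 without A3 and 0 without A2 and A4 together. Of 18 macrophage and monocyte markers tested 2 rose and 2 fell, the lipopolysaccharide receptor gene Cd14 from 1678 ± 545 to 476 ± 60.1 and the scavenger receptor gene Msr1 from 659 ± 246 to 1469 ± 94.7, and their summed level was 26900.4 to 75710.3 normalized counts in ATM-WT and 47281 to 68689 in ATM-KO. The count of macrophage markers that rose was 7 without A3, and 1 without A2, A4, A11, A13, A14 or A15, and the count that fell was 4 without A2 and A4 together. Of 11 dendritic cell markers 6 rose and 0 fell, with Itgax from 857 ± 154 to 2657 ± 367 and Flt3 from 36.2 ± 29.0 to 419 ± 32.4, and their summed level was 1332 to 2376 and 4539 to 5529.8. No marker of either list was at 0 in all libraries of a group, and their part in the Samhd1 values was not tested.

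**Figure D2:**
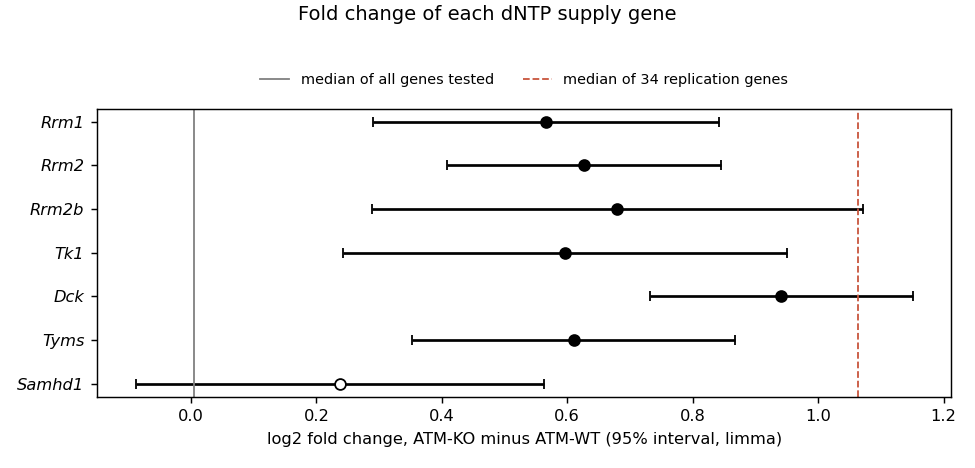
Log2 fold change (ATM-KO minus ATM-WT) of each gene with its 95% interval, filled where the limma adjusted p is below 0.05 and open for Samhd1. Called genes lie between 0.57 and 0.94, to the right of the median of all genes (grey) and to the left of the median of 34 replication genes (dashed, 1.06).

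Levels of different genes were compared per kilobase of the principal GENCODE M21 transcript, an approximation, since the authors' own transcript lengths were not used here. In ATM-WT the order was Samhd1 (1138 ± 268 normalized counts per kb), Tk1 (750.5 ± 199), Rrm2 (669 ± 65.7), Rrm1 (528 ± 98.9), Tyms (299 ± 44.5), Dck (266 ± 24.4) and Rrm2b (87.9 ± 21.3). The ranges over libraries overlapped between neighbours except between Rrm1 and Tyms and between Dck and Rrm2b. In ATM-KO the order was Samhd1 (1318 ± 146), Tk1 (1105 ± 82.4), Rrm2 (1033 ± 95.3), Rrm1 (772 ± 51.3), Dck (509.6 ± 36.7), Tyms (454 ± 46.6) and Rrm2b (139 ± 20.51). There the ranges of Rrm2 and Rrm1, of Rrm1 and Dck, and of Tyms and Rrm2b did not overlap. Rrm2b was thus the lowest of the 7 per kilobase of principal transcript in both groups. Coding transcripts ran from 357 to 4561 bases for Rrm2b, 447 to 3163 for Tyms and 781 to 2193 for Rrm2. Other choices of transcript could therefore change the order.

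Ratios taken within each library do not depend on its scaling, and 6 pairs were compared between the groups as log2 ratios. Rrm2 over Rrm2b gave 1.90 ± 0.48 in ATM-WT and 1.85 ± 0.12 in ATM-KO, a difference of -0.05 with a 95% interval from -0.56 to 0.48 (exact permutation p = 0.81). The ATM-KO values, 1.70 to 2.03, lay inside the ATM-WT range of 1.26 (A4) to 2.51 (A3), so no difference was detectable between the changes of the S phase and the p53-inducible subunit, and shifts as wide as that interval remain possible. Rrm2 over Samhd1 gave -1.58 ± 0.28 and -1.19 ± 0.09, a difference of 0.39 with an interval from 0.07 to 0.66 (exact permutation p = 0.032, 0.10 after Benjamini-Hochberg adjustment over all 13 ratios computed). All 5 ATM-KO libraries were above the ATM-WT mean and 2 above every ATM-WT library. Rrm2b over Samhd1 gave -3.48 ± 0.46 and -3.04 ± 0.11, a difference of 0.44 with an interval from -0.10 to 0.83 (exact permutation p = 0.095, adjusted 0.18). Neither ratio to Samhd1 therefore passed the adjusted threshold.

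The remaining pairs gave no call. Rrm2 over Rrm1, the small over the large subunit, differed by 0.06 with an interval from -0.40 to 0.51 (exact permutation p = 0.76). Tk1 over Dck differed by -0.34 with an interval from -0.74 to 0.12 (exact permutation p = 0.12, adjusted 0.19), with all 5 ATM-KO libraries below the ATM-WT mean. Tyms over Tk1 differed by 0.01 with an interval from -0.45 to 0.50 (exact permutation p = 0.94).

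**Figure D3:**
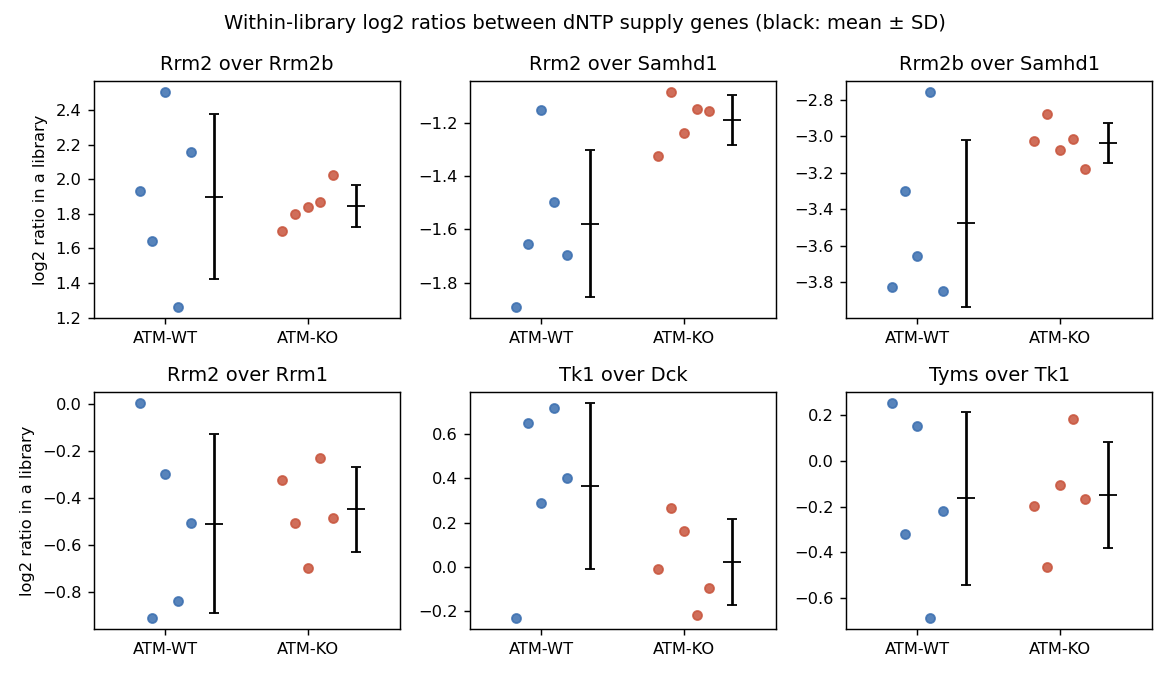
Within-library log2 ratios between pairs of genes, with 5 ATM-WT (blue) and 5 ATM-KO (red) libraries a panel and the mean ± SD in black. The ATM-KO values of Rrm2 over Rrm2b (1.70 to 2.03) lie inside the ATM-WT range, while those of Rrm2 over Samhd1 lie above the ATM-WT mean.

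Replication machinery genes, whose transcripts are known to peak around S phase, had a median fold change above that of each of the 7. Of 34 tested, 31 rose and 1 fell, with a median log2 fold change of 1.06. Single genes of the list ranged from -0.37 (Ccne1) to 1.69 (Gins2), and all 7 dNTP supply genes lay within that range. Among them were Gins2 (from 611 ± 159.9 to 1916 ± 55.4) and Cdc45 (from 358 ± 35.2 to 1043 ± 135), both parts of the replicative helicase, the single-strand binding gene Rpa1 (from 1433 ± 32.3 to 2989 ± 120.1) and the chromatin assembly gene Chaf1a (from 864 ± 107 to 2208 ± 155). The gene that fell was Ccne1 (from 274 ± 23.2 to 212 ± 14.2), picked out after its values were seen, a call lost in 14 of 19 alternatives, among them leaving out any library but A2. The mean log2 level of the list was 9.57 ± 0.18 in ATM-WT and 10.54 ± 0.06 in ATM-KO.

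Each of the 7 genes was then set against this mean within each library. Rrm1 went from 1.45 ± 0.11 to 1.04 ± 0.09 in log2 ratio, a difference of -0.41 with an interval from -0.56 to -0.26 (exact permutation p = 0.0079, adjusted 0.052 over the 13 ratios), and the groups did not overlap. Samhd1 went from 2.52 ± 0.42 to 1.79 ± 0.13, a difference of -0.74 with an interval from -1.25 to -0.34 and no overlap (exact permutation p = 0.0079, adjusted 0.052). The differences of Tk1 (-0.38, exact permutation p = 0.016), Tyms (-0.37, 0.040), Rrm2 (-0.35, 0.056) and Rrm2b (-0.30, 0.14) were also below 0, with adjusted values of 0.069, 0.10, 0.12 and 0.21. The difference closest to 0 was that of Dck, at 0.10 ± 0.18 and 0.07 ± 0.12, a difference of -0.03 with an interval from -0.26 to 0.17 (exact permutation p = 0.77). No ratio passed the adjusted threshold of 0.05, and the smallest adjusted value that 2 ratios at the smallest p could reach among 13 is 0.052.

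**Figure D4:**
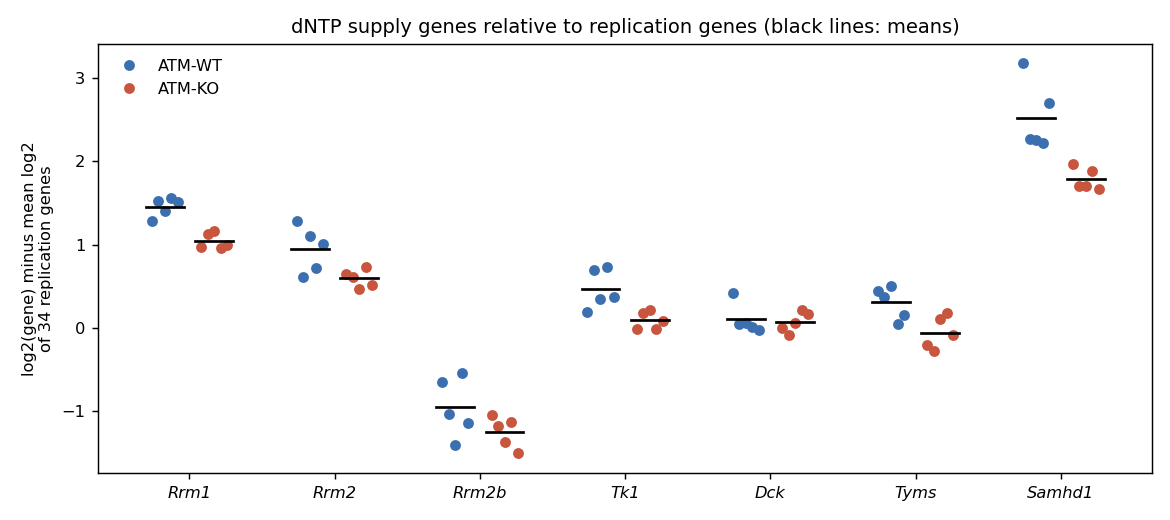
Log2 level of each gene minus the mean log2 level of 34 replication genes in the same library, for 5 ATM-WT (blue) and 5 ATM-KO (red) libraries, with means as black lines. The groups do not overlap for Rrm1 and Samhd1, while the means of Dck, 0.10 and 0.07, are closest to each other.

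The enzymes that feed ribonucleotides into the reductase were mostly higher. Of 15 tested genes of purine synthesis, 11 rose and 0 fell, with a median of 0.65. This list includes the purine salvage genes Hprt and Aprt, both among the 11 that rose. The phosphoribosyl pyrophosphate synthetase genes Prps1 (from 739 ± 96.2 to 1763 ± 124) and Prps2 (from 958 ± 139 to 2095 ± 77.2) rose, as did the guanylate branch genes Impdh2 (from 2206 ± 234 to 4046 ± 214) and Gmps (from 1837 ± 210.3 to 3663 ± 271). Of 5 genes of pyrimidine synthesis, 3 rose and 0 fell, with a median of 0.38. Cad, whose product carries out the first steps, rose from 1762 ± 375 to 2968 ± 169, and the CTP synthase gene Ctps rose from 1308 ± 124 to 2084 ± 117. Umps rose from 671 ± 161 to 857 ± 61.1 (limma adjusted p = 0.047), a call lost in 11 of 19 alternatives, among them leaving out any library but A2, while Ctps2 gave 844 ± 78.8 and 984 ± 129 and was not called.

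Electron donors and regulators of the reductase rose in 13 of 20 tested and fell in 0, with a median of 0.59. The thioredoxin gene Txn1 (from 5636 ± 1201 to 13909 ± 982) and the thioredoxin reductase gene Txnrd1 (from 2296 ± 528 to 5278 ± 690.4), which keep the reductase reduced, were among them. Cdc20, an activator of the mitotic ubiquitin ligase, rose from 923 ± 193 to 1895 ± 83.0 and E2f7, a repressor of the E2F family, from 191 ± 40.1 to 564 ± 115. Ccnf, which encodes the cyclin F that marks RRM2 for destruction, was picked out after its values were seen and rose from 564 ± 177 to 992 ± 106 (0.87 ± 0.21, limma adjusted p = 0.0039).

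Genes of nucleotide breakdown and pool cleaning went both ways, with 9 higher and 5 lower of 22 tested and a median of 0.45 (3 lower without A2 and A4 together or under quantile normalization). Of all genes tested, 22.1% rose and 24.3% fell. Ada, adenosine deaminase, rose from 253 ± 47.5 to 896 ± 70.1 and Dctpp1, which hydrolyses dCTP and modified forms of it, from 698 ± 203 to 1596 ± 172. Xdh, which makes uric acid, fell from 2758 ± 682 to 728 ± 167. Dpys, an enzyme of pyrimidine breakdown, was listed at 0, 0, 8.85, 0 and 0 in ATM-WT and at 44.1, 46.8, 59.95, 41.98 and 40.7 in ATM-KO, all of it low.

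**Figure D5:**
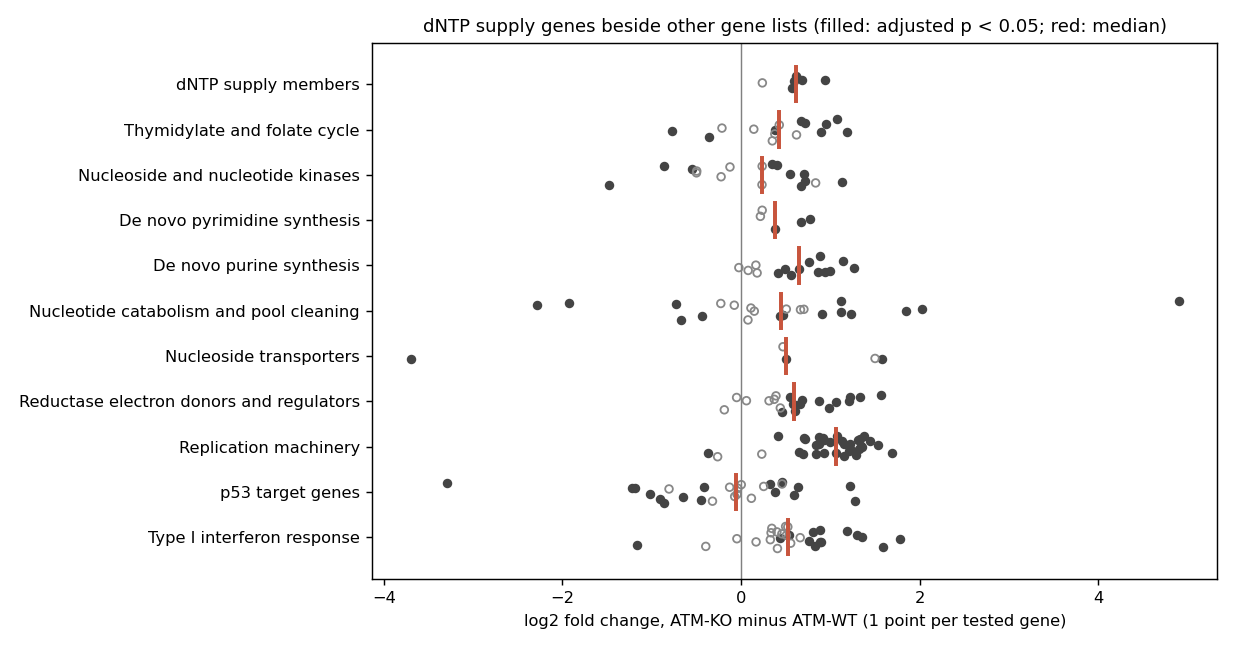
Log2 fold change (ATM-KO minus ATM-WT) of every tested gene of 11 lists, filled where the limma adjusted p is below 0.05, with the list median in red. The median of the 7 dNTP supply genes (0.61) lies above that of all genes tested and below that of the replication genes (1.06), and the p53 targets straddle 0. The points farthest left and right, Slc28a3 and Dpys, are genes listed at 0 in most or all libraries of a group.

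The genes most like Rrm2, Rrm2b and Samhd1 in their pattern were found by the root mean square difference of log2 values, each gene centred on its own mean over the 10 libraries. Among the 5 closest to Rrm2 were Map2k2 (0.08), Ptk2b (0.09), Sav1 (0.09) and Xrn1 (0.09). Closest to Rrm2b were Otud4 (0.13), Lmbrd2 (0.15), Lin54 (0.17), Pfkp (0.17) and Tbc1d32 (0.17), and closest to Samhd1 were Tes (0.10), Eya3 (0.12), Mast2 (0.12), Dtx3l (0.12) and Hk1 (0.13). No other dNTP supply gene was among these 5. Of the 16517 genes tested, the member most like Rrm2 was Tyms (0.21, rank 879), that most like Rrm2b was Rrm1 (0.29, rank 586), followed by Tk1 (rank 667) and Dck (rank 701), and that most like Samhd1 was Rrm2 (0.27, rank 1124). Rrm2b ranked 2957 in likeness to Rrm2, and Rrm2 ranked 991 in likeness to Rrm2b.

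Genes beside the 7 on the chromosome had median fold changes between -0.24 and 0.12. Among the 10 tested genes on either side in GENCODE M21 order, the median log2 fold change was 0.12 around Rrm1, -0.12 around Rrm2, -0.06 around Rrm2b, 0.01 around Samhd1, -0.01 around Tk1, -0.01 around Tyms and -0.24 around Dck. Of these 20 neighbours, 4 rose and 3 fell around Rrm1, 2 and 8 around Rrm2, 5 and 7 around Rrm2b, 6 and 1 around Samhd1, 3 and 2 around Tk1, 3 and 3 around Tyms, and 5 and 7 around Dck, where 22.1% of all genes tested rose and 24.3% fell.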

How the data were processed

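Tumour RNA of 10 libraries was measured by RNA sequencing after extraction by a sequencing company, per the labels' protocols. The authors deposited 1 table of normalized counts per gene, a signal that is neither whole nor per length. STAR, Salmon and DESeq2 are named in the submitters' processing notes. Which tool did which step, with what settings, build and annotation, is not given in the sources used here. The table's headers hold a genotype and a library number found in no label, so they were assigned to groups only.

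Low values came within 0.05 of whole reads, up to 20 of them, in only 56.5% to 68.9% of cases, so no count test was run, and depths are estimates. Genes with a mean of at least 10 were tested on log2(value + 1), a scale that understates fold changes of low genes, by moderated linear models with a mean-variance trend (limma 3.58.1, R 4.3.3). P-values were adjusted by the Benjamini-Hochberg method over all 16517 genes, at a threshold of 0.05. The procedure was first tested on simulated data. Values are mean ± SD over 5 libraries and fold changes ± SE. Ratios were tested by exact two-sided permutation over all splits of 5 against 5, with intervals from inverting that test. Calculations used Python 3.11.15, numpy 2.4.6, pandas 2.3.3, scipy 1.17.1 and matplotlib 3.10.9.

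The 7 genes and the lists were chosen with earlier results of these data known. Named besides them are up to 4 genes per list with the smallest p (2 for cell type markers) and the 5 genes most like Rrm2, Rrm2b and Samhd1. Some genes that this rule names are not reported here. Promoters are RefSeq's, GRCm38.p6, and transcripts and gene order GENCODE M21's. Alternatives were pseudocounts of 0.5 and 5, no filter or a mean of at least 50, quantile and upper-quartile scaling, a robust fit with no trend, library weights, the median of the replication genes and leaving out each library. Leaving out A2 and A4 together was chosen after seeing the data.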

Additional observations from a re-analysis of the deposited data

Results flagged for a closer look

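Of 40 sets of 5 libraries examined (7 genes and 13 ratios in each group), 1 had a library far from the rest, and chance marks about 1 in 20. The log2 ratio of Dck to the replication genes was 0.42 in ATM-WT library A1, against -0.03 to 0.06 in the other ATM-WT libraries.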

How the results depend on the processing

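The 6 calls of members kept their direction and their side of the threshold under all 19 alternatives, and Samhd1 stayed uncalled in all 19. Log2 fold changes ranged from 0.46 to 0.71 for Rrm1, 0.53 to 0.68 for Rrm2, 0.54 to 0.88 for Rrm2b, 0.47 to 0.85 for Tk1, 0.55 to 0.69 for Tyms, 0.90 to 0.99 for Dck and 0.11 to 0.34 for Samhd1. Quantile normalization moved the median of all genes tested to 0.15 and gave 4514 genes higher and 3319 lower, against 3649 and 4017. The 6 called members then lay between 0.47 (Rrm1) and 0.94 (Dck). Under it, 3 ratios to the replication genes passed the adjusted threshold, those of Rrm1 (-0.53), Samhd1 (-0.895) and Tk1 (-0.43). With the median in place of the mean of the replication genes, those of Rrm1 (-0.48), Samhd1 (-0.81) and Tyms (-0.43) passed (adjusted p = 0.034 in each, by exact permutation). No ratio passed in any other alternative, and with 1 library left out the smallest exact p is 0.016. The cause of these shifts was not tested. No paired analysis was possible because the sample numbers in the labels could not be tied to the table's columns. Depth was estimated, not known, and limits the low genes more than the 7 described.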
